A study of Homo sapiens with 16 samples.

Results

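The expression of 10 target genes of the tumour suppressor p53 was followed in HMC3, a human microglial cell line that was immortalised with SV40 T antigen, after 24 h of treatment with estradiol (E2), ketamine or 2 of its metabolites. The genes were CDKN1A, MDM2, SESN1, BTG2, TP53I3, FAS, RRM2B, ZMAT3, BBC3 and GADD45A, taken by their symbols from a count table of 25370 genes. All 10 were present and all 10 were among the 16004 genes with enough counts to be tested. The cells received vehicle, 0.1 nM E2, or one of 3 drugs at 400 nM, which were (2R,6R)-HNK, its mirror image (2S,6S)-HNK and ketamine. Each drug was also given together with E2, which made 8 conditions with 2 RNA-seq libraries each. HNK stands for hydroxynorketamine. All cells, controls included, were kept in serum-free medium without phenol red after growth in charcoal-stripped serum. Whether the 2 libraries of each condition stem from different cultures is not given in the sources used here, so p-values measure the spread between these libraries, which may be technical.

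p53 is a transcription factor that is stabilised by DNA damage and other stresses and that binds DNA at a short motif that occurs in pairs. Its targets halt the cell cycle (CDKN1A, which encodes the cyclin-dependent kinase inhibitor p21; BTG2; GADD45A), promote cell death (BBC3, which encodes PUMA; FAS; TP53I3), supply nucleotides and limit oxidative stress (RRM2B, SESN1), control RNA stability (ZMAT3) or return p53 to a low level (MDM2, the ubiquitin ligase that marks p53 for degradation). Large T antigen of SV40 is known to bind p53, so the pathway is not in its native state in lines of this kind.

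Sequences that match the p53 consensus, 2 copies of a motif of 10 bases with no spacer and at most 2 mismatches over the 20 bases, were searched within 5000 bp of the start of 1 transcript per gene, the canonical one, on GRCh37, whose chromosomes are those of the hg19 build used for the counts. The consensus reads the same on both strands, so 1 search covers both. They are printed because p53 acts on its targets through such sites. Capitals mark the central 4 bases of each copy, each sequence is written 5′ to 3′ on the strand of its gene, and distances run from the start of the canonical transcript to the centre of the match, negative upstream. CDKN1A and BBC3 have other transcripts that start further out, so that "upstream" matches of these genes lie at the edge of or within the span of the whole gene given further on.
ZMAT3, intron, distance 1612, chr3:178787976-178787995, minus strand: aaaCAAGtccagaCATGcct
GADD45A, intron, distance 1584, chr1:68152458-68152477, plus strand: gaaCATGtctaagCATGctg
CDKN1A, upstream, distance -2256, chr6:36644226-36644245, plus strand: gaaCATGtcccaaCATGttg
CDKN1A, upstream, distance -1374, chr6:36645108-36645127, plus strand: gaaGAAGactgggCATGtct
MDM2, intron, distance 756, chr12:69202703-69202722, plus strand: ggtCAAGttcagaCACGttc
MDM2, intron, distance 3028, chr12:69204975-69204994, plus strand: ggaCTTGcctagtCTTAtct
BTG2, upstream, distance -1868, chr1:203272770-203272789, plus strand: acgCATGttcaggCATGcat
BBC3, upstream, distance -1378, chr19:47735825-47735844, minus strand: gggTCTGcccaggCATGtcc
TP53I3, upstream, distance -1956, chr2:24309651-24309670, minus strand: ataCATCctcagaCATGttt
FAS, intron, distance 662, chr10:90751066-90751085, plus strand: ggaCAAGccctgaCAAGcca

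The match in ZMAT3 had 0 mismatches, that in GADD45A had 1, and the others printed had 2. Counting 1 more intronic match, in RRM2B, with 1 mismatch, 9 of the 10 genes held a match and 3 held one with at most 1 mismatch, and SESN1 held none in this window. Of the 15116 tested genes with a known start, 22.6% held a match of the same kind and 1.96% one with at most 1 mismatch. A match is a description of the letters and does not show that p53 was bound in these cells.

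The libraries held 55300614 to 81646165 counts, of which the 10 genes took between 0.0363% and 0.0497%. Levels are given as CPM, the counts of a gene relative to the size of its library, scaled by the trimmed mean of M-values (TMM). Beyond counting noise, the spread between libraries of a condition amounted to a common coefficient of variation of 2.81%, which is 1 value for all genes. The observed coefficient of variation of the members, as the median over conditions, ran from 1.04% for CDKN1A to 14.1% for SESN1. Of 12 microglial markers, AIF1, CX3CR1, P2RY12, TMEM119, PTPRC, ITGAM, SPI1 and TYROBP had 0 to 7 counts in every library and C1QA had 0 in all 16, whereas CD68 averaged 20.5 CPM, CSF1R 0.728 CPM and TREM2 0.723 CPM. The summed microglial markers ranged from 18.9 to 22.1 CPM in vehicle and from 19.5 to 25.03 CPM in the treated libraries. Of the fibroblast and pericyte markers, COL1A1 averaged 4548 CPM and VIM 1380 CPM, ACTA2 averaged 2.13 CPM, and COL3A1 and DCN had 0 to 12 counts. The summed fibroblast and pericyte markers ranged from 6166 to 6220 CPM in vehicle and from 5697 to 7823 CPM under treatment. Summed astrocyte markers lay at 6.56 to 7.21 CPM in vehicle and 5.88 to 10.97 CPM under treatment, with AQP4 at 0, and summed neuronal markers lay at 107.3 to 108.4 CPM and 74.99 to 141.4 CPM, almost all of it TUBB3. The part of these markers in the results was not tested. In RNA from whole cultures, a change in the number of cells that express a gene and a change in RNA per cell cannot be told apart.

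The 7 treatments were each compared with vehicle to see how the p53 targets responded. CDKN1A and BTG2 rose under every treatment, with and without a correction for GC content and gene length that is described further on. RRM2B fell under all 7, and under 6 with the correction. BBC3 rose under all 7, but with the correction it rose under ketamine alone. ZMAT3 fell under all 7 and MDM2 under 6, but with the correction each rose under 3 of these treatments and MDM2 did not pass in the other 3 nor ZMAT3 in the other 4. TP53I3 rose under 4 treatments and fell under 1, and with the correction it also fell under 2 more. SESN1 fell under 2, where its corrected values were positive, and with the correction rose under 2 others, GADD45A fell under 2 and with the correction under all 7, and FAS passed under none but with the correction under 2. Of the 70 gene-by-treatment values, 25 were called higher, 25 lower and 20 did not pass an adjusted p of 0.05 in edgeR's quasi-likelihood test (Benjamini-Hochberg over all genes tested). The 7 comparisons share the 2 vehicle libraries, so a deviation of those enters all of them.

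**Figure D1:**
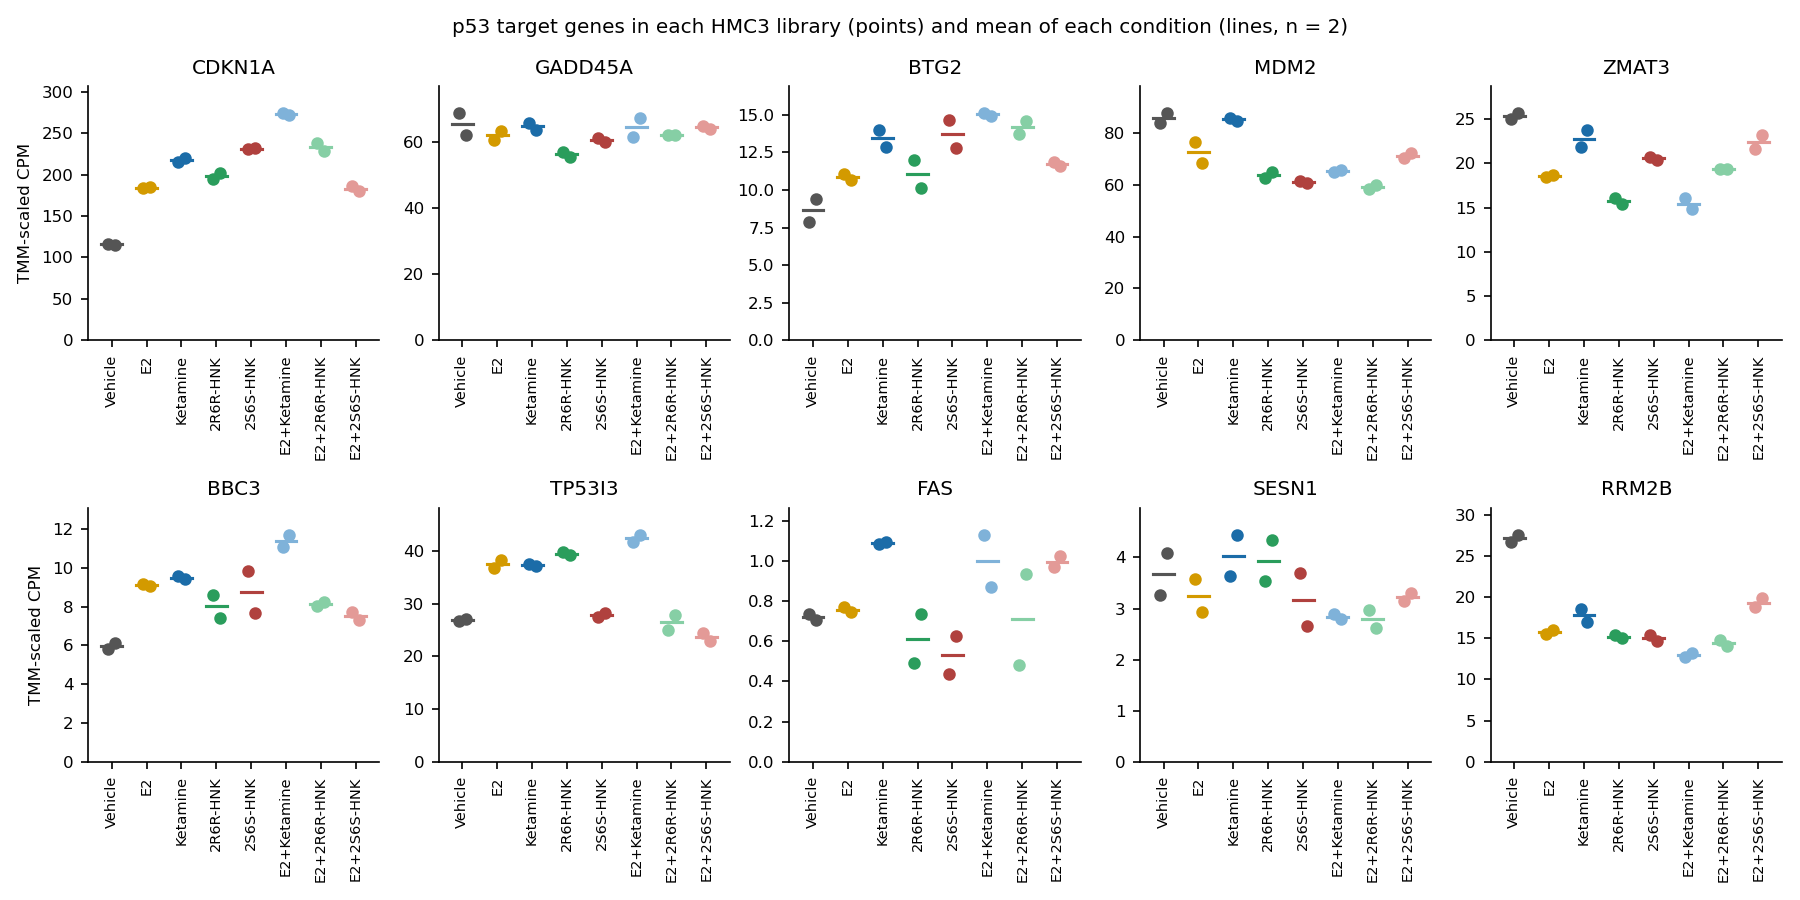
TMM-scaled CPM of each of the 10 p53 target genes (vertical axes, each from 0) in the 16 libraries (points) of 8 conditions, with lines at the mean of 2 libraries. CDKN1A lies at 115.2 and 116.3 CPM in vehicle and at 180.4 CPM or more in all treated libraries, RRM2B lies highest in vehicle, and GADD45A stays between 55.6 and 68.8 CPM.

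These counts have to be read beside those of all genes, since a large part of the transcriptome passed the same test. Under E2, 4 of the 10 genes rose and 3 fell, beside 29.9% and 32.7% of all tested genes. Under ketamine, 4 rose and 2 fell, beside 26.8% and 32.5%. Under (2R,6R)-HNK, 4 rose and 4 fell, beside 31.7% and 34.9%. Under (2S,6S)-HNK, 3 rose and 4 fell, beside 32.1% and 35.8%. Under E2+ketamine, 4 rose and 4 fell, beside 34.3% and 37.4%. With E2+(2R,6R)-HNK, 3 rose and 4 fell, beside 33.4% and 36.3%. With E2+(2S,6S)-HNK, 3 rose and 4 fell, beside 24% and 35.7%. The number of p53 targets called was thus within 2 genes of the background share in each comparison and direction, and the results below concern the size and order of single genes.

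A change of at least 1 on the log2 scale was rarer. CDKN1A reached it under (2S,6S)-HNK, where 9.08% of all genes did, under E2+ketamine, where 11% did, and under E2+(2R,6R)-HNK, where 11.5% did. RRM2B reached it in the negative direction under E2+ketamine. None of the 10 reached it under E2 (1.81% of all genes), ketamine (3.56%), (2R,6R)-HNK (3.75%) or E2+(2S,6S)-HNK (5.85%). The value for CDKN1A under (2S,6S)-HNK was 1.002, so close to the limit that leaving out any of 10 libraries took it under, and under E2+(2R,6R)-HNK leaving out replicate 1 of that condition did the same. After the GC and length correction no member reached it under these 3 treatments.

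**Figure D2:**
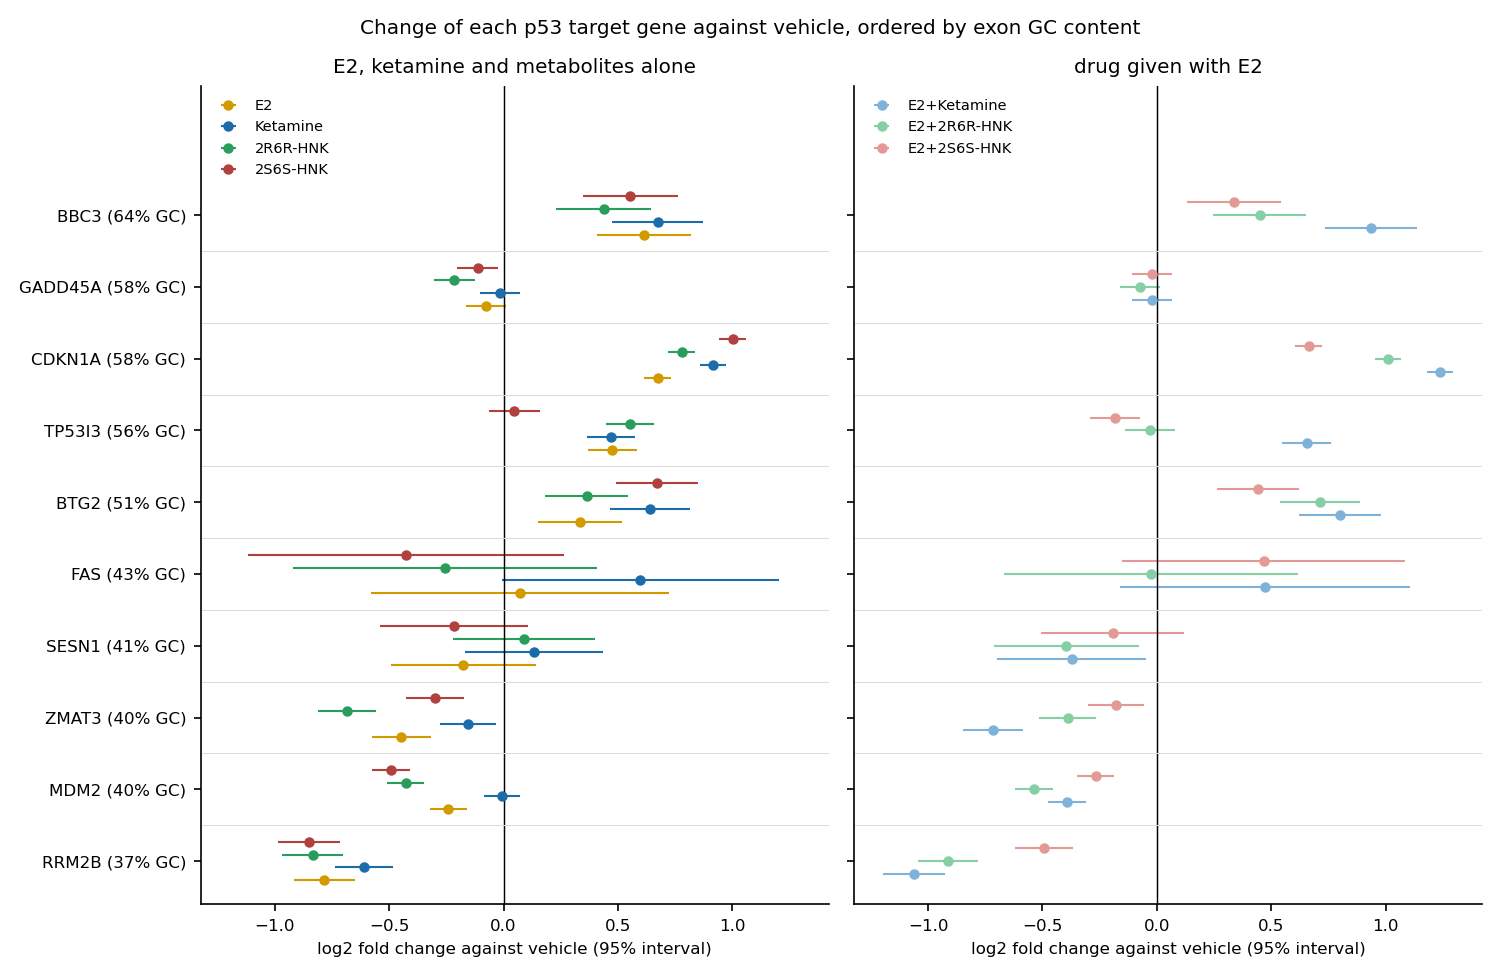
Log2 fold change against vehicle (horizontal axis) with its 95% interval for each p53 target gene (vertical axis, ordered by the GC content of its exons) under the 4 single treatments (left) and the 3 drugs given with E2 (right), 2 libraries per condition. Before any GC correction, CDKN1A and BBC3 lie above 0 and RRM2B below 0 under all 7 treatments, and FAS has the widest intervals; with the correction BBC3 lies below 0 under (2R,6R)-HNK with and without E2.

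Levels are comparable between genes per kilobase of exon only. On that scale CDKN1A was the most abundant, with a median of 69.8 CPM per kb over the 16 libraries, followed by GADD45A with 32.3, TP53I3 with 14.1 and MDM2 with 8.08. BTG2 (4.50), RRM2B (2.87), BBC3 (2.65) and ZMAT3 (1.76) formed a lower group in which each neighbour's range over the libraries overlapped the next. SESN1 (0.451) and FAS (0.213) were lowest and did not overlap each other. The ranges of TP53I3, from 9.93 to 18.6 CPM per kb, and MDM2, from 7.03 to 10.6 CPM per kb, also overlapped.

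Among the genes that halt the cell cycle, CDKN1A (chromosome 6, 36644237 to 36655114, plus strand) had the largest responses without the GC correction. With it, GADD45A changed by more under (2R,6R)-HNK and BTG2 by slightly more under E2+(2R,6R)-HNK (0.655 against 0.646). CDKN1A measured 116.3 and 115.2 CPM in vehicle, 183.6 and 185.6 CPM with E2, 216.0 and 220.1 CPM with ketamine, 195.2 and 202.0 CPM with (2R,6R)-HNK, and 230.6 and 232.9 CPM with (2S,6S)-HNK. With E2 added it measured 274.4 and 272.1 CPM for ketamine, 237.9 and 229.0 CPM for (2R,6R)-HNK, and 186.1 and 180.4 CPM for (2S,6S)-HNK. No treated library overlapped vehicle. The log2 fold change was smallest with E2+(2S,6S)-HNK (0.66, SE 0.03, adjusted p = 1.7e-25) and largest with E2+ketamine (1.24, SE 0.03, adjusted p = 4.2e-37). E2+(2S,6S)-HNK and E2 alone were neighbours that did not differ (difference -0.01, 95% interval -0.07 to 0.05), although after the GC and length correction the former was higher by 0.15. CDKN1A overlaps 146 bp of the opposite-strand transcript DINOL, which is not in the count table.

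BTG2 (chromosome 1, 203274619 to 203278730, plus strand), an antiproliferative gene of the BTG/TOB family, changed in the same direction at a lower level. It measured 7.88 and 9.40 CPM in vehicle, 11.1 and 10.7 CPM with E2, 14.01 and 12.9 CPM with ketamine, 11.998 and 10.1 CPM with (2R,6R)-HNK, and 14.7 and 12.8 CPM with (2S,6S)-HNK. With E2 added it measured 15.1 and 14.96 CPM for ketamine, 13.7 and 14.6 CPM for (2R,6R)-HNK, and 11.9 and 11.6 CPM for (2S,6S)-HNK. Log2 fold changes ran from 0.33 (SE 0.09, adjusted p = 0.0012) with E2 to 0.80 (SE 0.09, adjusted p = 1.8e-11) with E2+ketamine. The call under E2 was lost without vehicle replicate 1 (0.21) and that under (2R,6R)-HNK without its replicate 1 (0.23). The family member BTG1 rose under 4 and fell under 1 treatment, with a median log2 fold change of 0.16, and with the GC correction rose under all 7. The others differed in direction: BTG3 fell under 6 (median -0.35) and TOB1 under 3 (-0.12), while TOB2 rose under 6 (0.28). With the correction BTG3 rose under 3 and fell under 1, TOB1 rose under 5, and TOB2 rose under 2 and fell under 1.

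GADD45A (chromosome 1, 68150884 to 68154017, plus strand), a stress sensor that slows the G2/M transition, passed the test only as a decrease, with and without the GC correction, and its values lay between -0.22 and -0.01 without the correction but reached -0.61 with it. It measured 68.8 and 62.1 CPM in vehicle and 57.2 and 55.6 CPM with (2R,6R)-HNK, where it fell by 0.22 on the log2 scale (SE 0.04, adjusted p = 2.5e-05). With (2S,6S)-HNK it measured 61.2 and 59.95 CPM and fell by 0.11 (SE 0.04, adjusted p = 0.022), a call lost with DESeq2, with only the groups compared in the fit, with upper-quartile scaling and without vehicle replicate 1 or (2S,6S)-HNK replicate 2. Under the other 5 treatments it ranged from 60.8 to 67.5 CPM and did not pass the test, with log2 fold changes from -0.08 to -0.01. Its relative GADD45B rose under all 7 treatments with a median of 0.47, and after the GC correction rose under 3 and fell under 1.

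MDM2 (chromosome 12, 69201957 to 69239324, plus strand), the negative regulator of p53, was lower than vehicle in 6 of 7 comparisons, but with the GC and length correction its log2 fold change was positive in all 7. It measured 84.0 and 87.7 CPM in vehicle and 86.1 and 84.7 CPM with ketamine, where the groups overlapped (log2 fold change -0.01, 95% interval -0.09 to 0.07). It measured 76.5 and 68.7 CPM with E2, 62.6 and 65.1 CPM with (2R,6R)-HNK, and 61.4 and 60.8 CPM with (2S,6S)-HNK. With E2 added it measured 65.1 and 65.6 CPM for ketamine, 58.4 and 59.99 CPM for (2R,6R)-HNK, and 70.4 and 72.2 CPM for (2S,6S)-HNK. The decrease was largest with E2+(2R,6R)-HNK (-0.54, SE 0.04, adjusted p = 9.1e-17). Its exons overlap 133 bp of the carboxypeptidase M gene on the opposite strand, and since the strand setting of the counting is not given, reads there cannot be told apart. Its relative MDM4 rose under 2 and fell under 2 treatments, and after the correction rose under all 7.

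Among the genes that promote cell death, BBC3 (chromosome 19, 47724079 to 47736023, minus strand) rose under all 7 treatments without the GC correction and under ketamine alone with it. It measured 5.79 and 6.11 CPM in vehicle, 9.15 and 9.04 CPM with E2, 9.58 and 9.40 CPM with ketamine, 8.62 and 7.41 CPM with (2R,6R)-HNK, and 9.82 and 7.68 CPM with (2S,6S)-HNK. With E2 added it measured 11.1 and 11.7 CPM for ketamine, 8.01 and 8.24 CPM for (2R,6R)-HNK, and 7.70 and 7.31 CPM for (2S,6S)-HNK. The increase was largest with E2+ketamine (0.94, SE 0.10, adjusted p = 7.2e-12) and smallest with E2+(2S,6S)-HNK (0.34, SE 0.10, adjusted p = 0.0039). At 64.4% GC its exons were richer in G and C than those of 95.8% of the tested genes. The other BH3-only genes listed as relatives, PMAIP1 and BCL2L11, are counted with the lists below.

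TP53I3 (chromosome 2, 24300303 to 24308731, minus strand), a quinone oxidoreductase linked to oxidative stress in p53-dependent death, separated the treatments into 2 sets. It measured 26.8 and 27.2 CPM in vehicle, 36.7 and 38.2 CPM with E2, 37.5 and 37.2 CPM with ketamine, 39.7 and 39.3 CPM with (2R,6R)-HNK and 41.8 and 43.1 CPM with E2+ketamine, so that these 8 libraries lay above all others. With (2S,6S)-HNK it measured 27.5 and 28.3 CPM, and with E2+(2R,6R)-HNK 25.1 and 27.8 CPM, close to vehicle. With E2+(2S,6S)-HNK it measured 24.5 and 22.95 CPM, both below vehicle. Its 4 increases ran from 0.47 (SE 0.05) for ketamine to 0.65 (SE 0.05) for E2+ketamine. All 4 were also called after the GC correction, but were smaller and in another order. They were then 0.31 for ketamine, 0.23 for E2, 0.21 for (2R,6R)-HNK and 0.19 for E2+ketamine. The decrease of 0.18 (SE 0.05, adjusted p = 0.0034) with E2+(2S,6S)-HNK was lost with upper-quartile scaling, with only the groups compared in the fit and without replicate 2 of that condition. With the GC correction TP53I3 was also lower under (2S,6S)-HNK (-0.24) and E2+(2R,6R)-HNK (-0.32).

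FAS (chromosome 10, 90750414 to 90775542, plus strand), the death receptor, was barely expressed, with 24 to 93 counts per library. It measured 0.736 and 0.705 CPM in vehicle and 1.09 and 1.10 CPM with ketamine, the largest log2 fold change without the GC correction (0.60, 95% interval -0.01 to 1.20, adjusted p = 0.085). The intervals under the other treatments spanned from -1.12 to 1.11, so that changes near 1 on the log2 scale lay within the intervals at this depth. Its exons overlap 380 bp of ACTA2 on the opposite strand, and ACTA2 itself had 89 to 197 counts. FAS passed the test for ketamine when only the 2 groups compared were fitted (0.62), with upper-quartile scaling (0.68) and after the GC correction (0.90), which also gave a call for E2+ketamine (0.98).

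ZMAT3 (chromosome 3, 178677909 to 178790003, minus strand), a zinc finger protein that binds RNA, fell under all 7 treatments, but with the GC and length correction it rose under ketamine (0.23), (2S,6S)-HNK (0.23) and E2+(2R,6R)-HNK (0.16) and did not pass under the other 4 (-0.09 to 0.13). It measured 25.03 and 25.7 CPM in vehicle, 18.5 and 18.7 CPM with E2, 21.8 and 23.7 CPM with ketamine, 16.1 and 15.4 CPM with (2R,6R)-HNK, and 20.7 and 20.4 CPM with (2S,6S)-HNK. With E2 added it measured 16.04 and 14.8 CPM for ketamine, 19.3 and 19.4 CPM for (2R,6R)-HNK, and 21.7 and 23.2 CPM for (2S,6S)-HNK. The lowest values were those of (2R,6R)-HNK (-0.68, SE 0.06, adjusted p = 1.35e-13) and E2+ketamine (-0.72, SE 0.06, adjusted p = 3.3e-14). The calls for ketamine (-0.15) and E2+(2S,6S)-HNK (-0.18) were lost under 6 and 4 of 23 alternative settings or omitted libraries, among them vehicle replicates 1 (-0.17) and 2 (-0.14) and ketamine replicate 1 (-0.09) for the former, and vehicle replicate 2 (-0.16) and E2+(2S,6S)-HNK replicate 1 (-0.13) for the latter.

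RRM2B (chromosome 8, 103216730 to 103251189, minus strand), the p53-inducible small subunit of ribonucleotide reductase, had the largest decreases without the GC correction. With it, GADD45A fell further under 6 of 7 treatments, and TP53I3 did under E2+(2S,6S)-HNK (-0.28 against -0.16). RRM2B measured 26.7 and 27.6 CPM in vehicle, 15.5 and 16.1 CPM with E2, 18.6 and 16.95 CPM with ketamine, 15.4 and 15.005 CPM with (2R,6R)-HNK, and 15.4 and 14.7 CPM with (2S,6S)-HNK. With E2 added it measured 12.7 and 13.3 CPM for ketamine, 14.8 and 14.03 CPM for (2R,6R)-HNK, and 18.8 and 19.9 CPM for (2S,6S)-HNK. Log2 fold changes ran from -0.49 (SE 0.06, adjusted p = 3.1e-09) with E2+(2S,6S)-HNK to -1.06 (SE 0.07, adjusted p = 1.3e-19) with E2+ketamine. With the GC correction they shrank to between -0.12 and -0.27, and ketamine no longer passed. The large subunit RRM1 fell under all 7 treatments both ways, with a median of -0.76 and, corrected, -0.40. The S-phase small subunit RRM2 fell under 6 both ways, with a median of -0.41 and, corrected, -0.33.

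SESN1 (chromosome 6, 109305512 to 109416049, minus strand), a stress-inducible inhibitor of mTORC1, had 157 to 369 counts per library. It measured 3.27 and 4.10 CPM in vehicle, 2.89 and 2.80 CPM with E2+ketamine, and 2.96 and 2.63 CPM with E2+(2R,6R)-HNK. It fell under these treatments by 0.37 (SE 0.16, adjusted p = 0.036) and 0.40 (SE 0.16, adjusted p = 0.023), but the GC correction gave positive values, DESeq2 and upper-quartile scaling lost both calls, and both were lost without vehicle replicate 2 (-0.20 and -0.23). The first was also lost without either of its own libraries (-0.40 and -0.35), and the other without E2+(2R,6R)-HNK replicate 2 (-0.31). Under the other 5 treatments SESN1 ranged from 2.66 to 4.45 CPM and did not pass the test, but with the GC correction it was called higher with ketamine (0.48) and (2R,6R)-HNK (0.60). Its relative SESN2 rose under 6 treatments with a median of 0.25, and after the correction under 1, while 3 were then lower.

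The direction of these changes mostly followed the GC content of the genes. The exceptions were the decreases of GADD45A (57.8%) and that of TP53I3 (56.1%) under E2+(2S,6S)-HNK. Exons of the genes with increases (BBC3, CDKN1A, TP53I3, BTG2) held from 50.6% to 64.4% G and C, whereas those of RRM2B, MDM2, ZMAT3 and SESN1 held from 37.5% to 41.2%. The same relation ran through the transcriptome. Across 15335 genes, Spearman's rho between GC content and log2 fold change ranged from 0.44 in cells given E2+(2S,6S)-HNK to 0.77 in those given E2+ketamine. These values are taken across genes, which are no independent replicates, and all 7 share the vehicle libraries. A difference between libraries that depends on base composition and a change in the cells that happens to follow it cannot be told apart in this design.

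**Figure D3:**
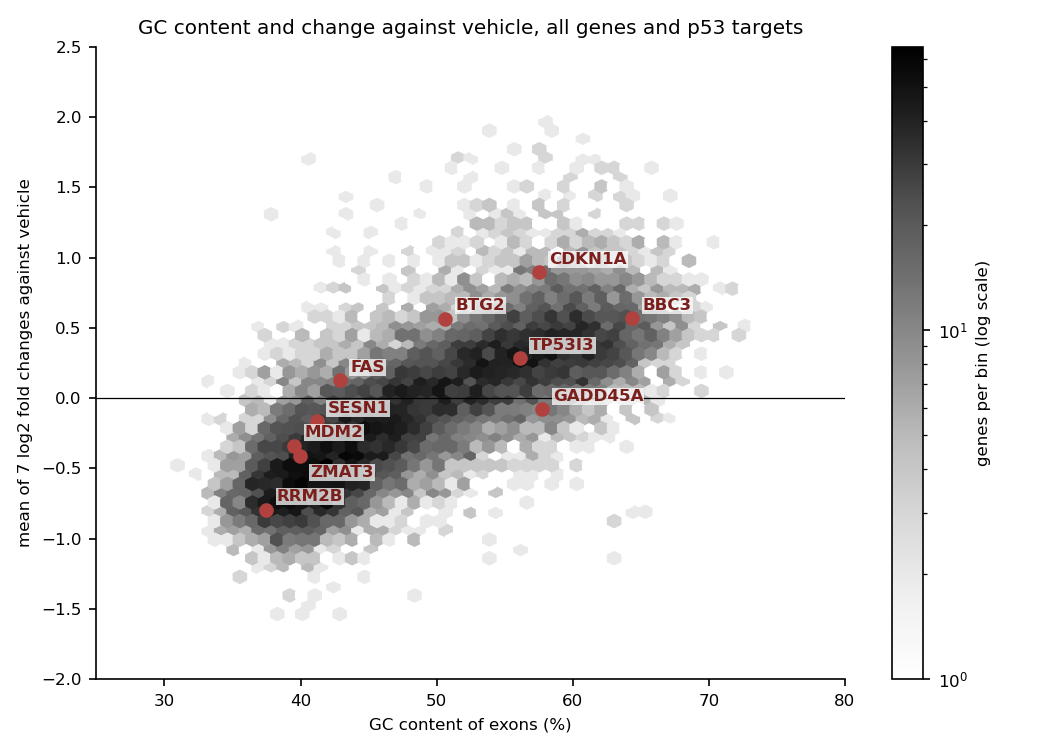
Mean of the 7 log2 fold changes against vehicle (vertical axis) by GC content of exons (horizontal axis) for the tested genes (grey, darker for more genes on a log scale) and the 10 p53 targets (red). RRM2B, at 37.5% GC, lies lowest among the 10 before correction, while CDKN1A, at 57.5% GC, and BTG2, at 50.6% GC, lie above the bulk of genes of like GC content and GADD45A, at 57.8% GC, below it.

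Each library was therefore also corrected for GC content and exon length, after which rho lay between 0.01 and 0.05 in the 7 comparisons. Of the 70 gene-by-treatment values, 28 were called in the same direction with and without the correction, 6 in opposite directions, 16 without it only and 12 with it only. Among all 16004 genes the calls fell in each of the 7 comparisons, from a range of 9492 to 11476 to one of 6036 to 9489. How many of all genes kept or reversed their call was not counted, so the members cannot be ranked against them in this. With the correction CDKN1A rose under every treatment by 0.38 to 0.71 and BTG2 by 0.27 to 0.69, and GADD45A was lower under every treatment by values from -0.14 to -0.61. MDM2 was higher with E2 (0.25), ketamine (0.40), (2R,6R)-HNK (0.16) and E2+ketamine (0.34) and did not pass under the other 3. The highest count was that of ketamine, with 8 of the 10 genes higher and GADD45A lower, where 22.5% and 25.3% of all genes were. RRM2B did not pass there (-0.12).

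The corrected counts for the other treatments were smaller. With E2, 4 genes were higher and 2 lower, beside 17.9% and 19.9% of all genes. With (2R,6R)-HNK, 5 were higher and 2 lower, beside 22.3% and 23.4%. With (2S,6S)-HNK, 3 were higher and 3 lower, beside 28% and 28.4%. GADD45A was among the genes that fell in each of them. With E2+ketamine, 5 were higher and 2 lower, beside 25.8% and 26.3%. With E2+(2R,6R)-HNK, 3 were higher and 3 lower, beside 29.4% and 29.9%. With E2+(2S,6S)-HNK, 2 were higher and 3 lower, beside 26.4% and 29.2%. A response of the cells that tracks base composition would be taken out by this correction too, so neither set of values is free of this limit.

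**Figure D4:**
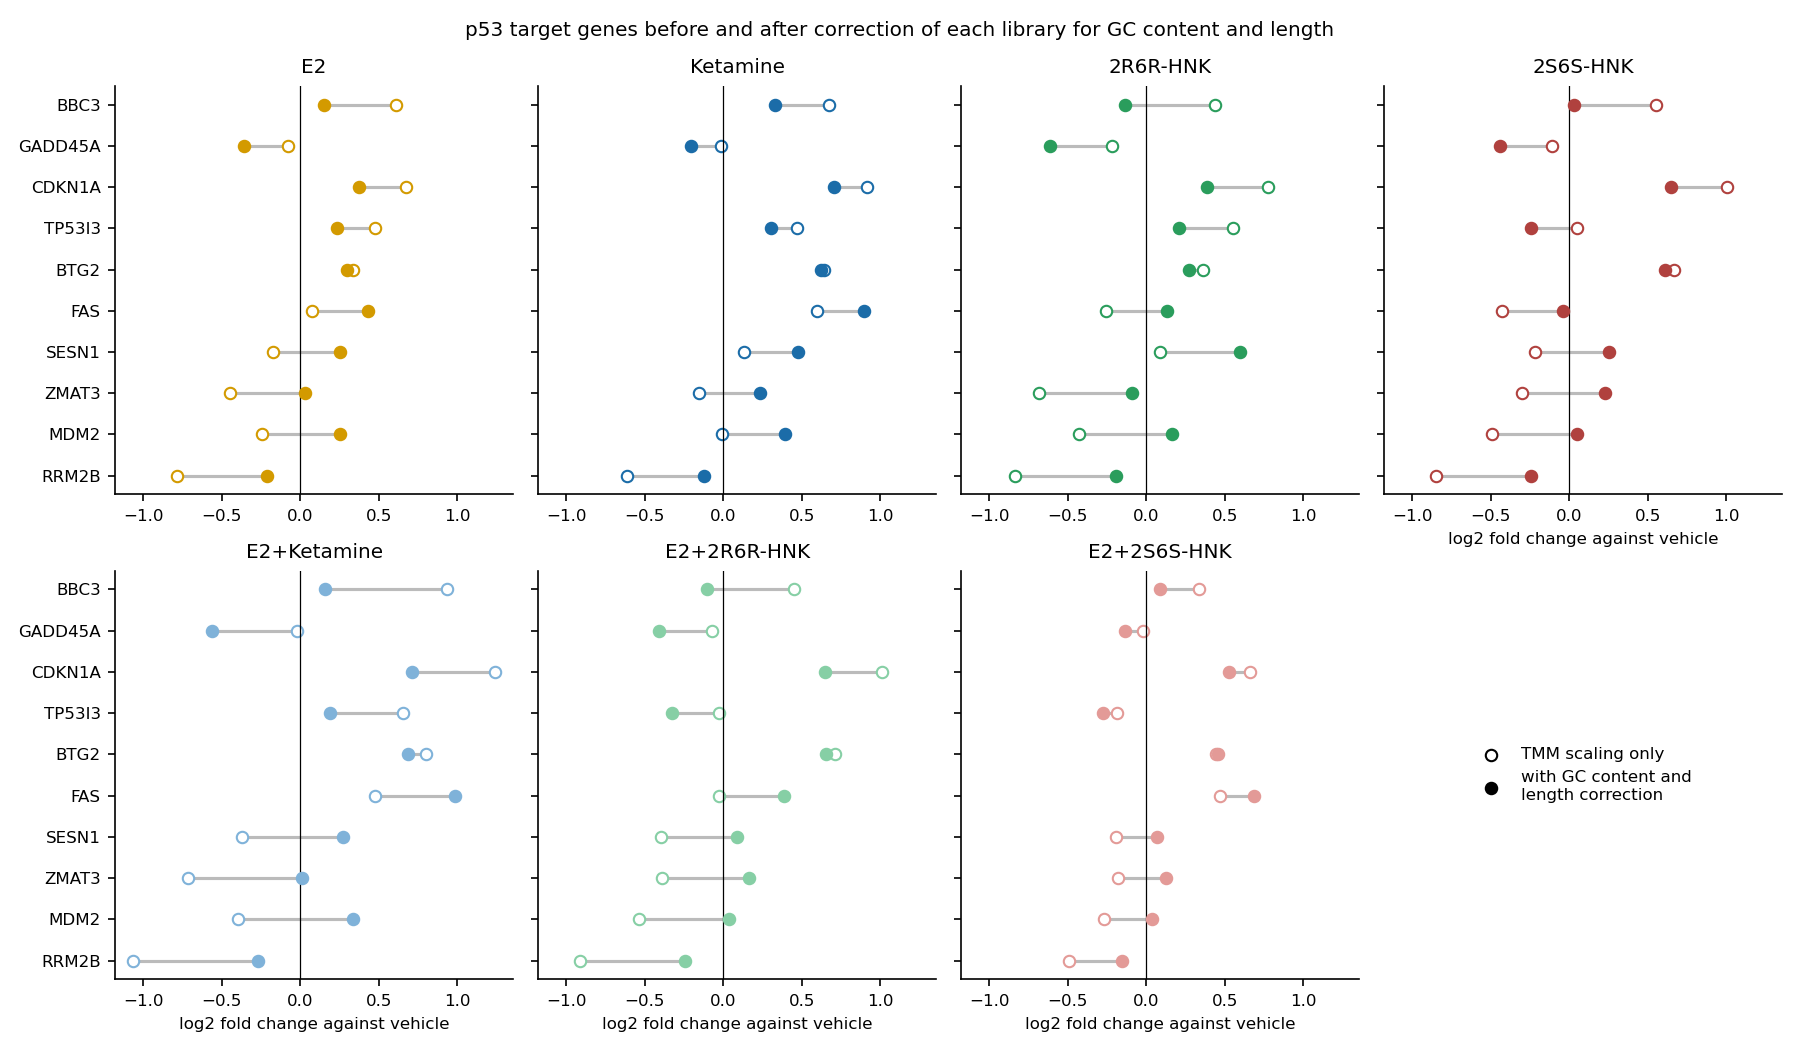
Log2 fold change against vehicle (horizontal axes) of each p53 target gene under 7 treatments with TMM scaling only (open circles) and with correction for GC content and length (filled circles), joined by lines. GC-rich BBC3 moves down and GC-poor MDM2, ZMAT3 and RRM2B move up in every panel, while BTG2 moves little and CDKN1A stays above 0 with at least 0.38.

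The design also asks whether the response to a drug differs in the presence of E2. Added to E2, ketamine moved 7 of the 10 genes, 4 up and 3 down (50.3% of all genes passed in either direction). CDKN1A was 0.57 and BTG2 0.47 higher than with E2 alone. MDM2, RRM2B and ZMAT3 were lower by 0.15, 0.28 and 0.27, but with the GC correction these 3 no longer passed and only CDKN1A (0.33), BTG2 (0.39) and GADD45A (-0.20) did. The calls among all 16004 genes fell there too, from 8051 to 5646. Added to E2, (2R,6R)-HNK moved 4 genes (50.5% of all genes), with CDKN1A 0.34 and BTG2 0.38 higher and TP53I3 and MDM2 lower. With the GC correction these 4 were still called (0.27, 0.36, -0.56 and -0.22), and BBC3 was called lower as well (-0.26). Of all 16004 genes, 8125 were then called. TP53I3 went from 37.5 ± 1.1 CPM (SD, n = 2) with E2 to 26.4 ± 1.9 CPM (SD, n = 2) with E2+(2R,6R)-HNK, a log2 difference of -0.50 (SE 0.05). Added to E2, (2S,6S)-HNK moved 4 genes (55.1% of all genes): TP53I3 (-0.66) and BBC3 (-0.27) were lower and RRM2B (0.29) and ZMAT3 (0.27) higher, of which the correction kept TP53I3 (-0.51) and added MDM2 (-0.22), GADD45A (0.22) and CDKN1A (0.15). With the correction 8237 of the 16004 genes were called in this comparison.

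The interaction, the effect of a drug with E2 minus its effect without E2, passed the test for 8 genes under (2S,6S)-HNK (65.1% of all genes), 7 under (2R,6R)-HNK (56.6%) and 5 under ketamine (37.5%), the last of which fell to 3 when replicate 1 of vehicle, E2 or E2+ketamine or either ketamine library was left out. These counts are near the background of all genes. With the correction 6, 6 and 4 members passed for (2S,6S)-HNK, (2R,6R)-HNK and ketamine, where 6368, 6959 and 5522 of the 16004 genes did. For CDKN1A the effect was smaller with E2 for each drug, with interactions of -0.35 (SE 0.04) for ketamine, -0.44 (SE 0.04) for (2R,6R)-HNK and -1.01 (SE 0.04) for (2S,6S)-HNK, and with the GC correction -0.37, -0.12 and -0.49, all 3 still called. (2S,6S)-HNK thus raised CDKN1A by 1.002 in the absence of E2 and differed from E2 alone by -0.01 in its presence, and with the correction these values were 0.65 and 0.15, both called. For TP53I3 the interactions were -0.29 (SE 0.07), -1.06 (SE 0.07) and -0.71 (SE 0.08), and with the correction -0.35, -0.76 and -0.27, all called. RRM2B had positive interactions with all 3 drugs (0.33, 0.70 and 1.14), of which the correction kept that of (2S,6S)-HNK (0.29). The interactions of BBC3 (-0.35, -0.60 and -0.83) did not pass the test with the correction, where that of ketamine was about as large (-0.33) and the others were -0.12 and -0.10. For MDM2 the interaction was 0.46 under (2S,6S)-HNK, 0.13 under (2R,6R)-HNK and -0.14 under ketamine, and the first 2 turned negative with the correction (-0.26 and -0.38).

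Ketamine and the metabolites were compared with each other at the same 400 nM and 24 h. The hydroxynorketamines lack the N-methyl group of ketamine and carry a hydroxyl group on its cyclohexanone ring, and (2R,6R)-HNK and (2S,6S)-HNK are mirror images. The comparison covered 6 pairs, 3 without and 3 with E2. Without E2, 8 of the 10 genes were higher with ketamine than with (2R,6R)-HNK and none was lower. Of all 16004 genes tested, 3652 were higher and 3613 lower, so that 45.4% differed in either direction. Among the 10, the largest differences without the GC correction were those of FAS (0.85, SE 0.31), ZMAT3 (0.53, SE 0.06) and MDM2 (0.42, SE 0.04). After the GC correction 7 were higher, where 2904 of the 16004 genes were, in the order FAS (0.76), BBC3 (0.47), GADD45A (0.40), BTG2 (0.35), ZMAT3 (0.32), CDKN1A (0.32) and MDM2 (0.23). Leaving out ketamine replicate 1 reduced the 8 to 4. TP53I3 (-0.08, 95% interval -0.18 to 0.02) and SESN1 (0.04, 95% interval -0.25 to 0.34) did not pass the test.

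Ketamine and (2S,6S)-HNK differed in 5 genes (46.1% of all genes), with MDM2 (0.48, SE 0.04), TP53I3 (0.42, SE 0.05), RRM2B (0.24, SE 0.07) and FAS (1.03, SE 0.32) higher with ketamine. With the GC correction RRM2B was no longer called (0.12), FAS was 0.94, and BBC3 (0.30) and GADD45A (0.23) were called as well. Of all 16004 genes, 6578 were called with it. CDKN1A was lower with ketamine by 0.09 (SE 0.03), and with the GC correction it was higher by 0.06. FAS, at 1.09 and 1.10 CPM with ketamine against 0.438 and 0.628 CPM with (2S,6S)-HNK, was the only member past a log2 difference of 1 in any pair without the correction. BTG2 did not differ by more than its interval (-0.03, 95% interval -0.20 to 0.14). With p-values adjusted over all genes and all 6 pairs together, ZMAT3 also passed (0.14), and the counts for the other 5 pairs stayed as given. The count rose to 8 with upper-quartile scaling and with halved counts.

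The mirror images (2R,6R)-HNK and (2S,6S)-HNK differed in 4 genes without E2 (43.5% of all genes), and these 4 were called in the same direction after the GC correction. TP53I3 was higher with (2R,6R)-HNK by 0.50 (SE 0.05, adjusted p = 2.85e-11), with 39.7 and 39.3 CPM against 27.5 and 28.3 CPM. CDKN1A (-0.22, SE 0.03), BTG2 (-0.31, SE 0.09) and ZMAT3 (-0.39, SE 0.07) were lower with (2R,6R)-HNK, and corrected they were -0.26, -0.34 and -0.32. With the correction MDM2 (0.11) and GADD45A (-0.17) were called as well, beside 7168 of the 16004 genes. The differences of RRM2B (0.02, 95% interval -0.12 to 0.16), MDM2 (0.06, 95% interval -0.02 to 0.15) and BBC3 (-0.12, 95% interval -0.32 to 0.08) did not pass the test.

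**Figure D5:**
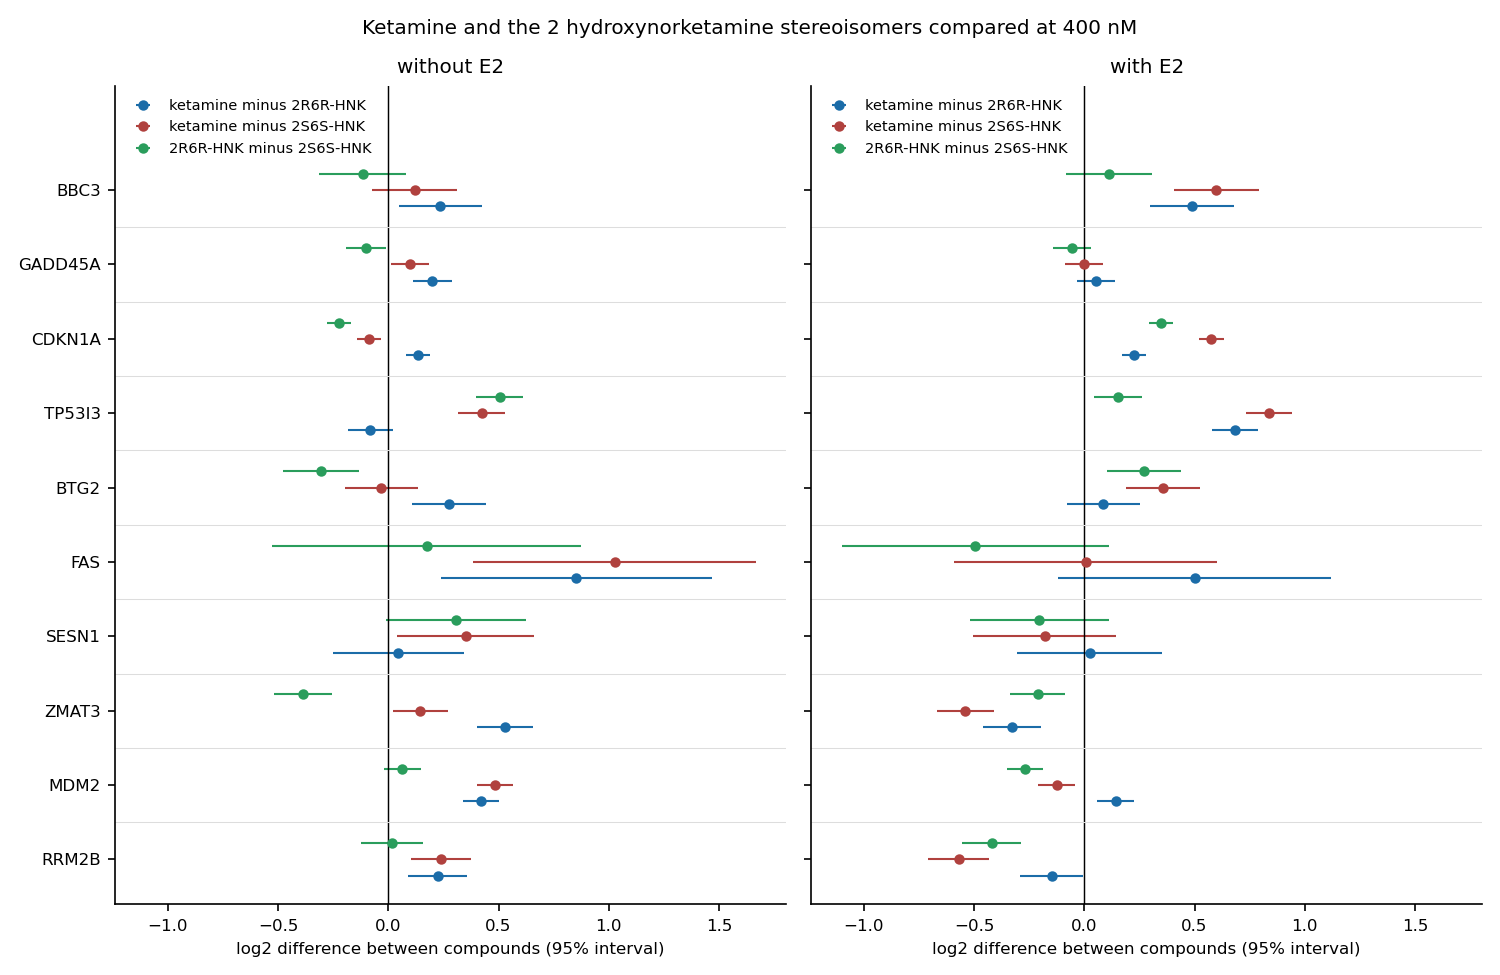
Log2 difference between compounds given at 400 nM (horizontal axis, first compound minus second) with its 95% interval for each p53 target gene (vertical axis), without E2 (left) and with E2 (right), before GC correction. Without E2, MDM2 lies at 0.42 and 0.48 for ketamine against the metabolites, and with E2 TP53I3 lies at 0.68 and 0.84; with the correction these values are 0.23, 0.35, 0.51 and 0.47.

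In the presence of E2, ketamine and (2R,6R)-HNK differed in 5 genes (52% of all genes), ketamine and (2S,6S)-HNK in 7 (66.8%) and the mirror images in 6 (54%). TP53I3 was higher with E2+ketamine than with E2+(2R,6R)-HNK by 0.68 (SE 0.05) and than with E2+(2S,6S)-HNK by 0.84 (SE 0.05), and the correction left 0.51 and 0.47. CDKN1A was also higher with E2+ketamine than with these, by 0.23 (SE 0.03) and 0.58 (SE 0.03), and corrected by 0.06 and 0.18. The order of the mirror images for CDKN1A was the opposite of that without E2: it was higher with E2+(2R,6R)-HNK than with E2+(2S,6S)-HNK by 0.35 (SE 0.03), and corrected by 0.12. Of the 6 genes that differed between the mirror images with E2, CDKN1A was the only one still called after the correction, when GADD45A was called as well (-0.27). The calls among all 16004 genes fell for this pair too, from 8647 to 4552.

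The rest of the p53 pathway was described by lists. Of 43 other p53 targets, 41 were found by symbol, and in each comparison 11 to 22 rose and 8 to 16 fell, with medians from -0.04 to 0.17, beside 24% to 34.3% of all genes higher and 32.5% to 37.4% lower. GDF15, a stress cytokine (median 1.77), and FDXR, a mitochondrial reductase (median 0.88), rose under all 7 treatments with and without the correction. BLOC1S2 (median -0.68) fell under all 7 both ways, and PERP (median -0.54), a desmosomal protein, fell under all 7 but under 2 after the correction. With the correction, 15 to 22 rose and 3 to 15 fell, with medians from -0.05 with E2+(2R,6R)-HNK to 0.24 with E2+ketamine, beside 17.9% to 29.4% of all genes higher and 19.9% to 29.9% lower.

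Of 20 tested genes upstream of p53 or partners of it, 4 to 7 rose and 11 to 14 fell, with medians from -0.45 to -0.19. With the correction 4 to 6 rose and 7 to 11 fell, and the medians were between -0.15 and -0.01. Of all genes, 24% to 34.3% rose and 32.5% to 37.4% fell in these comparisons without the correction. CDKN2A, which encodes p16 and ARF, and TP73 had the highest medians (0.59 for both), the latter called in 2 comparisons after the correction. The kinase gene ATR (-1.02) and the deubiquitinase gene USP7 (-0.91), whose product acts on MDM2, had the lowest and fell under all 7 both ways. Of 17 cell cycle genes repressed through p21 and the DREAM complex, 2 to 8 rose and 9 to 14 fell, with medians from -0.38 to -0.09, and with the correction 3 to 6 rose and 7 to 14 fell, with medians from -0.19 to -0.01. E2F1 rose under all 7 with and without the correction (median 0.66), and MCM5 rose under 6 and fell under 1 (median 0.36), and corrected rose under 4 and fell under 3. The proliferation marker MKI67 (-0.75) and topoisomerase gene TOP2A (-0.74) fell under all 7, and after the correction MKI67 fell under 7 and TOP2A under 5. Of 17 tested relatives of the members, 5 to 8 rose and 3 to 9 fell, with CDKN1C (0.65) and GADD45B (0.47) highest and RRM1 (-0.76) and ZMAT2 (-0.66) lowest by median. The medians of this list ran from -0.21 to 0.07. With the correction 5 to 10 of the relatives rose and 3 to 6 fell, with medians from 0.03 to 0.28. CDKN1C, a relative of CDKN1A, rose under 4 treatments and fell under 3, and with the correction the medians of CDKN1C (0.0067) and GADD45B (0.0017) were close to 0.

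Over the 8 condition means, the pattern of CDKN1A was most like those of C1QL4 (Pearson's r of log2 CPM 0.996), FDXR (0.992), APOC1 (0.992), SLC8B1 (0.990) and SIGIRR (0.988), all of which have a GC content from 55.3% to 66.6%. Among the members it was closest to BTG2 (0.96) and most opposed to RRM2B (-0.93). The pattern of MDM2 was most like those of PPM1D (0.995), which encodes the phosphatase WIP1 and is itself a p53 target, TMEM64 (0.981), EDEM1 (0.981), VEZF1 (0.978) and TM7SF3 (0.973), with a GC content from 41.4% to 45.0%. Between CDKN1A and MDM2 r was -0.64, whereas with the GC correction the log2 fold changes of both were positive under every treatment. These r values are descriptions, without the GC correction, over 8 points that share libraries and scaling.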

How the data were processed

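RNA-seq counts of HMC3 cells under 8 conditions, 2 libraries each, were analysed. The authors aligned paired reads to hg19 with TopHat and Bowtie2, counted uniquely mapped, non-discordant pairs per gene with featureCounts, and deposited raw counts. Lanes held 8 samples each. The strand setting and which samples shared a lane are not given in the sources used here. Totals ranged from 55300614 to 81646165. Low counts were more often even (65.8%) than high ones (49.9%), so both reads of some pairs may have been counted, which would make small counts up to 2 times too high, and halved counts were an alternative.

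The members and lists were chosen with earlier results of these data known. Named genes were the 10 members and, per list, the 2 highest and 2 lowest medians among genes of at least 5 CPM, with relatives of a member named beside it. edgeR 4.0.16 in R 4.3.3 (filterByExpr, TMM, 1 quasi-likelihood fit of 16 libraries, Benjamini-Hochberg within each comparison) was the test. The study's methods name DESeq2, which was an alternative (1.42.0). Other alternatives were other filters, upper-quartile scaling, only the groups compared, the replicate number as a block, each library left out, and a loess offset (span 0.5) on GC content and exon length, known for 95.8% of genes tested. For compound pairs, p-values were also adjusted over all genes and 6 pairs. Gene models were GENCODE on GRCh37, to which 21539 symbols matched directly and 1450 through a synonym. On counts simulated for ketamine against vehicle (16004 genes, 200 changed by 1.5 on the log2 scale), edgeR recovered 91% with 7 false calls. In the data 9492 genes were called for ketamine, and the members changed by less than 1.5 there. The simulation also held no difference between libraries that depends on GC content. Its rates of recovery and false calls therefore do not carry over to these data.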

Additional observations from a re-analysis of the deposited data

Results flagged for a closer look

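The interaction of a drug with E2 (effect with E2 minus effect without E2, log2 scale) passed edgeR's quasi-likelihood test for 20 gene and drug pairs, and each of these is a difference between the effects of 1 drug in 2 settings. For ketamine they were CDKN1A (-0.35), BBC3 (-0.35), TP53I3 (-0.29), MDM2 (-0.14) and RRM2B (0.33). For (2R,6R)-HNK they were TP53I3 (-1.06), BBC3 (-0.60), CDKN1A (-0.44), MDM2 (0.13), GADD45A (0.22), RRM2B (0.70) and ZMAT3 (0.74). For (2S,6S)-HNK they were CDKN1A (-1.01), BBC3 (-0.83), TP53I3 (-0.71), BTG2 (-0.56), GADD45A (0.17), MDM2 (0.46), ZMAT3 (0.57) and RRM2B (1.14). With the GC content and length correction the interactions of CDKN1A and TP53I3 were still called, in the same direction, for all 3 drugs. Those of BBC3 were called for none (-0.33, -0.12 and -0.10), and those of MDM2 were negative for all 3. ZMAT3 shrank to 0.23 under (2R,6R)-HNK, still called, but was -0.13 and no longer called under (2S,6S)-HNK. GADD45A grew to 0.56 and 0.66 under these metabolites, both called. Under (2S,6S)-HNK, BTG2 (-0.44) and RRM2B (0.29) were still called, whereas RRM2B was not under the other drugs. Called only after correction were ZMAT3 under ketamine (-0.25) and SESN1 under (2R,6R)-HNK (-0.76).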

How the results depend on the processing

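Of the 50 calls against vehicle, 42 (23 higher and 19 lower) were kept under each of the 23 alternatives other than the GC content and length correction, that is 6 other fits, the replicate block and the 16 fits without 1 library. When 1 library is left out, the lone sample of its condition is assumed to vary like the other groups. The values that changed sign or count are listed here, and the cause was not tested for any of them.

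Values close to 0 changed sign as follows. MDM2 with ketamine (-0.01) was 0.021 in DESeq2, 0.019 with only the groups compared, 0.0023 without a filter, 0.0041 with at least 10 counts in every library and 0.076 with upper-quartile scaling. GADD45A with ketamine was 0.014 in DESeq2, 0.012 with only the groups compared and 0.069 with upper-quartile scaling, with E2+ketamine 0.031 in DESeq2 and 0.041 with upper-quartile scaling, with E2+(2R,6R)-HNK 0.0078 with upper-quartile scaling, and with E2+(2S,6S)-HNK 0.052 with only the groups compared and 0.085 with upper-quartile scaling. FAS with E2+(2R,6R)-HNK was 0.0016 in DESeq2 and 0.054 with upper-quartile scaling, where TP53I3 was 0.052. Ketamine against (2S,6S)-HNK gave 8 members, not 5, with upper-quartile scaling and with halved counts. Upper-quartile scaling moved the share of called genes that were higher from 45.2% to 55.6% for ketamine, from 40.2% to 54.3% for E2+(2S,6S)-HNK and from 65.2% to 46.9% for the interaction of ketamine.

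The GC content and length correction reversed MDM2 under all 7 treatments (E2 0.25, ketamine 0.40, (2R,6R)-HNK 0.16, (2S,6S)-HNK 0.049, E2+ketamine 0.34, E2+(2R,6R)-HNK 0.034, E2+(2S,6S)-HNK 0.034), ZMAT3 under 6 (E2 0.028, ketamine 0.23, (2S,6S)-HNK 0.23, E2+ketamine 0.0087, E2+(2R,6R)-HNK 0.16, E2+(2S,6S)-HNK 0.13) and SESN1 under 5 (E2 0.25, (2S,6S)-HNK 0.25, E2+ketamine 0.27, E2+(2R,6R)-HNK 0.089, E2+(2S,6S)-HNK 0.069). It also reversed FAS with (2R,6R)-HNK (0.13) and E2+(2R,6R)-HNK (0.39), BBC3 with the same treatments (-0.14 and -0.10) and TP53I3 with (2S,6S)-HNK (-0.24). With it, 0 members reached a log2 fold change of 1 under (2S,6S)-HNK, E2+ketamine and E2+(2R,6R)-HNK, 3 changed from E2 to E2+ketamine and 2 differed between the mirror images with E2. In the latter 2 comparisons, 5646 and 4552 of the 16004 genes were called with it. With the replicate block added to the correction, the counts of members were the same, and the values of FAS were 0.13 and 0.37, of SESN1 0.25, 0.25, 0.27, 0.0902 and 0.0704, of BBC3 -0.14 and -0.10 and of ZMAT3 with E2+ketamine 0.00895, with the others equal to the digits given.

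Leaving out 1 library at a time gave -0.021 to 0.30 for SESN1 with ketamine, -0.066 to 0.26 with (2R,6R)-HNK and -0.47 to 0.0011 with (2S,6S)-HNK. For GADD45A the ranges were -0.087 to 0.061 with ketamine, -0.094 to 0.054 with E2+ketamine, -0.15 to 0.0017 with E2+(2R,6R)-HNK and -0.092 to 0.056 with E2+(2S,6S)-HNK. For FAS they were -0.55 to 0.027 with (2R,6R)-HNK and -0.58 to 0.38 with E2+(2R,6R)-HNK, for MDM2 with ketamine -0.040 to 0.023 and for TP53I3 with E2+(2R,6R)-HNK -0.10 to 0.042. The count of members with an interaction of ketamine ranged from 3 to 5 (3 without vehicle, E2 or E2+ketamine replicate 1 or either ketamine library), ketamine against (2R,6R)-HNK from 4 to 8 (4 without ketamine replicate 1), and members past a log2 fold change of 1 from 0 to 1 with (2S,6S)-HNK and with E2+(2R,6R)-HNK.

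The replicate block changed no call. Libraries with the same number showed no large shared deviation over all tested genes (r from -0.03 to 0.05 over 28 pairs). Whether the numbers stand for a shared culture or day cannot be settled by these values. FAS and SESN1 had the fewest counts and the widest intervals.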
